A study of Rhamphochromis sp. 'chilingali' and Astatotilapia calliptera with 50 samples.

Results

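Rhamphochromis sp. 'chilingali' (RC) is a cichlid of the Lake Malawi basin, and its embryos were followed here from the 10-somite stage to the 15-somite stage (somite stage, ss). The comparison was chosen by the labels alone: 3 single whole embryos labelled RC 15ss were set against 3 labelled RC 10ss, 6 of the 50 libraries in the series. All 6 were labelled wild-type and tank-reared, and no treatment is named. Per the study's methods the eggs were taken from the mother after fertilization and kept singly in well plates, in water with methylene blue, and RNA was sequenced from each embryo on its own. Astatotilapia calliptera (AC), the other cichlid of the series, had 3 embryos at each of these stages (AC 15ss and AC 10ss), which shared no embryo with the RC comparison. All embryos of a species came from 1 clutch, so clutch and species cannot be told apart. The p-values rest on 1 spread per gene between siblings of the same stage, pooled over the 47 embryos of both species in the fit. That spread is not particular to the RC 15ss and RC 10ss embryos, and it does not measure variation between clutches of a species. Where these embryos were spread more widely than that, the SE given is too small for them and the p-value too low. Somites were counted on fixed siblings of the same cohort and not on the sequenced embryos, so a label gives the stage of the cohort. Reads of both species were mapped to the A. calliptera genome. In a whole embryo, fewer cells of a type and less RNA per cell cannot be told apart.

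Somites are blocks of mesoderm that bud off in pairs, head to tail, from the presomitic mesoderm, and most of their cells become skeletal muscle. Over the same period neural crest (NC) cells, which arise at the border of the neural plate, leave the neural tube, migrate, and give rise to pigment cells, peripheral neurons and glia, and to much of the cartilage and connective tissue of the head. Muscle precursors go on from transcription factors such as Myf5 to the proteins of the sarcomere, the contractile unit of striated muscle, and the pharyngeal arches are patterned by endothelin and other signals sent to the NC cells that fill them.

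The 6 libraries held 17619762 to 23354059 reads in genes, and no gene took more than 1.03% of a library. Values are the deposited normalized counts, in which reads were scaled for library depth but not for gene length, so levels are compared between embryos and not between genes. Of 28001 gene entries, 236 could be given a gene name, and the others are known by an identifier only. The names came from the study's lists of NC, pigmentation and craniofacial candidates and of genes near its signals of selection. Named genes, and the marker lists matched by name, are therefore not a neutral sample of all genes.

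The embryos did not fall into 2 tight groups. The 17 RC embryos of the other stages from 4ss to 30ss were used to draw a first principal component (54% of their variance), scaled so that 0 was the mean of RC 4ss and 100 the mean of RC 30ss. The RC 15ss embryos lay at 51.3, 50 and 32.7 (replicates 1, 2 and 3), against 32.9, 20.0 and 33.3 for the RC 10ss embryos. RC 15ss replicate 3 was thus level with RC 10ss replicates 1 and 3, and RC 10ss replicate 2 lay below all others of its stage. The component of the 24 AC embryos (52.9% of their variance) placed RC 15ss replicate 3 and RC 10ss replicate 2 likewise, with 56.2, 55.4 and 41.4 for RC 15ss against 45.2, 30.5 and 42.5 for RC 10ss. The AC embryos did not overlap between these stages on either axis: on the RC axis AC 15ss spanned 50.2 to 58.9 and AC 10ss 33.2 to 34.6.

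**Figure D1:**
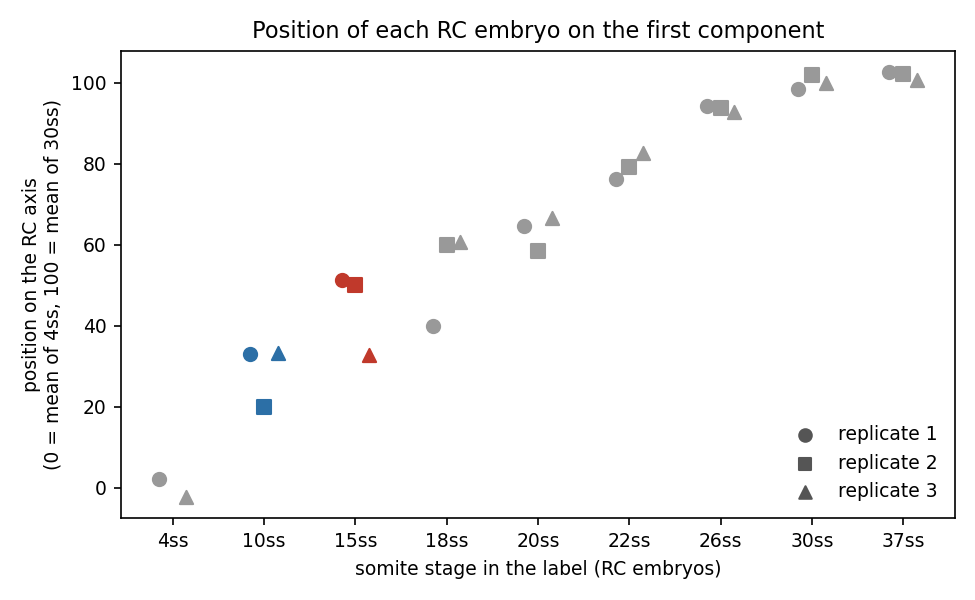
Position of every RC embryo (y axis, percent of the distance from the RC 4ss mean to the RC 30ss mean on the first component, which was drawn without the 10ss, 15ss and 37ss embryos) by labelled somite stage (x axis). Each point is 1 embryo and its shape gives the replicate number; of the red 15ss embryos, replicate 3 (triangle, 32.7) lay level with the blue 10ss replicates 1 and 3 (32.9 and 33.3).

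The rank correlations across genes, which are not independent replicates, also set RC 15ss replicate 3 apart from its stage. They did not follow the axis throughout. RC 15ss replicates 1 and 2 were each other's nearest library (Spearman rho 0.9885). RC 15ss replicate 3 was nearest to RC 10ss replicate 2 (0.9818), and correlated with its own stage at 0.9689 and 0.9751. With RC 10ss replicate 1, which was level with it on the RC axis, it correlated at 0.9548. RC 10ss replicate 1 was nearest to RC 18ss replicate 1 (0.9835). That 18ss embryo lay at 39.9 on the RC axis, against 59.9 and 60.7 for its siblings. RC 10ss replicate 3 was nearest to RC 15ss replicate 2 (0.9858).

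The distance between siblings was large in many genes. The 15252 genes with a mean of at least 50 normalized counts over all 50 libraries of the series were compared. A gene could pass this minimum and be scarce here, such as egf, low in RC 10ss replicate 2 at 1.0 against 6.1 and 14.2. Of the 15252, 1214 were more than 2-fold lower in RC 15ss replicate 3 than in both other RC 15ss embryos, against 105 and 62 for replicates 1 and 2. At 10ss, 1290 genes were more than 2-fold lower in replicate 2 than in both others, and 980 were more than 2-fold higher in replicate 1. The genes low in RC 15ss replicate 3 and in RC 10ss replicate 2 shared 761 genes, 62.7% of the first list and 59.0% of the second. Counts of called genes are therefore given without single embryos as well.

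Between 10ss and 15ss in RC, a small set of genes passed the test, nearly all of them higher at 15ss. By limma's moderated test on log2(normalized count + 1), with Benjamini-Hochberg adjustment over the 21123 genes tested, 151 genes passed an adjusted p of 0.05 and a fold change of 1.5 (0.715% of the genes tested). Of these, 145 were higher at 15ss (0.686%) and 6 lower (0.0284%). The median difference over all genes tested was 0.01 on the log2 scale. By limma 1902 genes had an unadjusted p under 0.05, 1452 of them higher at 15ss and 450 lower. A gene that did not pass is not shown to have stayed level.

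The 145 genes that rose did so steeply, from low levels. Their differences ranged from 0.65 to 5.28 on the log2 scale, 136 of them reached 1 and 79 reached 2. Their median normalized count was 112, 85.6 and 49.0 in the RC 15ss embryos, against 24.6, 9.54 and 29.7 in the RC 10ss embryos. In 60 of them the 15ss mean stayed under 50 normalized counts, and 9 had no read in any RC 10ss embryo. In 121 of the 145 every 15ss embryo lay above every 10ss embryo, which was so for 7.21% of all genes tested. The 145 were chosen from these same embryos, so this order is no further support for them. Along the RC series the median of their mean levels was 3.32 in 4ss embryos, 28.3 in 10ss embryos and 94.5 in 15ss embryos. It was 137 for 18ss, 185 for 20ss, 223 for 22ss, 322 for 26ss, 382 for 30ss and 364 for 37ss, so that most of their later level was not yet reached by 15ss.

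The embryos that lay lowest of their stage on the RC axis were also the lowest in most of these genes. The axis was drawn from all genes tested, these included, so this is no separate observation. RC 15ss replicate 3 was the lowest 15ss embryo in 117 of the 145 genes and lay below the highest 10ss embryo in 18. RC 10ss replicate 2 was the lowest 10ss embryo in 104. Without RC 15ss replicate 3, 406 genes were called, 370 higher (1.75%) and 36 lower (0.170%), and 143 of the 151 were among them. Without RC 15ss replicate 1 only 17 genes were called and without RC 10ss replicate 2 only 22, all of them higher, and without RC 15ss replicate 2 only 37. Without RC 10ss replicate 3 there were 269. With the spread taken from the RC 15ss and RC 10ss embryos alone, 0 genes were called. The size of the set therefore rested on which siblings stood for each stage, and the calls rested on a spread pooled with other embryos.

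**Figure D2:**
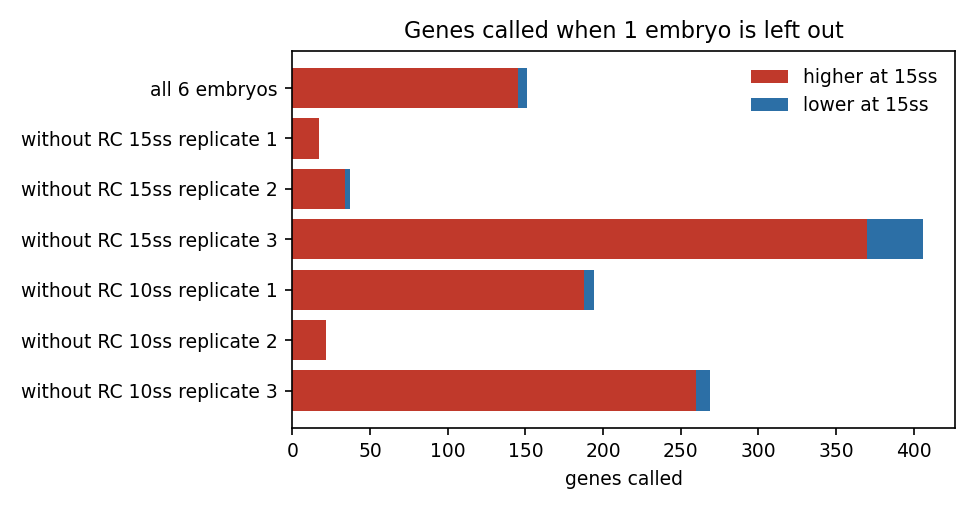
Number of genes called between RC 15ss and RC 10ss (x axis; adjusted p under 0.05 and fold change above 1.5, limma) with all 6 embryos and with each embryo left out in turn (rows). Red bars are genes higher at 15ss and blue bars genes lower at 15ss; the count was 151 with all 6 embryos and lay between 17 (without RC 15ss replicate 1) and 406 (without RC 15ss replicate 3).

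Of the 145 genes, 6 had a name, and they cover a muscle RNA-binding protein, an endothelin receptor, a matrix proteoglycan, 2 secreted growth factors and a glycolytic enzyme. The first, rbm24b, encodes an RNA-binding protein of striated muscle that acts on splicing. It had 1284.6, 932.6 and 588.6 normalized counts in the RC 15ss embryos, against 351.0, 194.6 and 425.4 in the RC 10ss embryos. The lowest 15ss embryo lay above the highest 10ss embryo, and the difference was 1.53 on the log2 scale (SE 0.28, limma adjusted p = 0.00507). Its paralog rbm24a had 1475.5, 900.8 and 551.0 in RC 15ss against 541.4, 336.7 and 496.5 in RC 10ss, a difference of 1.0 that did not pass (adjusted p = 0.631, limma). Only uniquely mapped reads were counted, so a read matching both copies would be left out of both. Later in RC, rbm24b peaked at a mean of 1564 at 20ss and stood at 767 at 37ss.

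The gene ednraa encodes an endothelin receptor through which the endothelin ligand Edn1 patterns the NC cells of the pharyngeal arches. It had 242.4, 354.2 and 75.1 normalized counts in RC 15ss, against 38.9, 41.0 and 94.4 in RC 10ss. RC 15ss replicate 3 lay below the highest 10ss embryo, so the groups overlapped, and the difference was 1.79 (log2, SE 0.35, adjusted p = 0.00725, limma). Without that embryo it was 2.44. The ligand gene edn1 had 36.4, 62.4 and 158.6 in RC 15ss against 18.4, 26.7 and 124.1 in RC 10ss, with replicate 3 the highest at each stage, and its difference of 0.83 did not pass (adjusted p = 0.668, limma). The paralog of ednraa, ednrab, was among the genes low in RC 15ss replicate 3 and in RC 10ss replicate 2 and high in RC 10ss replicate 1.

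Decorin (dcn), a small proteoglycan that binds collagen in the extracellular matrix, had 1553.3, 1409.4 and 552.1 normalized counts in RC 15ss, against 463.6, 193.6 and 572.8 in RC 10ss. Replicate 3 alone broke the order, lying just under the highest 10ss embryo, and the difference was 1.52 (log2, SE 0.34, adjusted p = 0.0219, limma). Its mean level then climbed to 5529 at RC 37ss.

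The secreted factors were egf and tgfb3. The gene egf, which encodes the ligand of the epidermal growth factor receptor, had 116.1, 77.2 and 17.7 in RC 15ss against 6.1, 1.0 and 14.2 in RC 10ss. It was close to its detection limit at 10ss, the lowest 15ss embryo was only just above the highest 10ss embryo, and the difference was 3.22 (log2, SE 0.77, adjusted p = 0.0322, limma). It was 2.41 without RC 10ss replicate 2, 3.90 without RC 10ss replicate 3 and 4.00 without RC 15ss replicate 3. Transforming growth factor beta 3 (tgfb3), a ligand with roles in palate and connective tissue development in mice, showed the smallest spread, with 212.1, 234.7 and 215.0 in RC 15ss against 122.8, 146.0 and 137.1 in RC 10ss. Here RC 15ss replicate 3 was not the lowest 15ss embryo, the groups were well apart, and the difference was 0.70 (log2, SE 0.16, adjusted p = 0.027, limma).

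The glycolytic enzyme gene eno1a, an enolase, had 1917.9, 1800.6 and 1043.6 in RC 15ss against 1154.4, 756.5 and 830.2 in RC 10ss. Replicate 3 lay below RC 10ss replicate 1, and the difference was 0.77 (log2, SE 0.19, adjusted p = 0.0381, limma). All 6 of these genes kept their call without RC 15ss replicate 3. All 6 lost it without RC 15ss replicate 1 and without RC 10ss replicate 2, at adjusted p-values of 0.0812 to 0.31, and all but rbm24b lost it without RC 15ss replicate 2. For tgfb3 the difference was then as large as before, 0.73 without RC 15ss replicate 1 and 0.76 without RC 10ss replicate 2. Calls were also lost without RC 10ss replicate 1, for tgfb3 (adjusted p = 0.0898, limma) and egf (0.0512), and without RC 10ss replicate 3, for eno1a (0.093). Each SE of these 6 genes was the pooled value, the same for AC. For ednraa the SD was 140 and 31.5 normalized counts in RC 15ss and RC 10ss, against 39 and 13.7 in AC 15ss and AC 10ss. The SD was larger in RC at both stages for rbm24b, dcn, egf and eno1a too. For tgfb3 it was smaller, 12.3 and 11.7 in RC against 80.6 and 18 in AC.

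**Figure D3:**
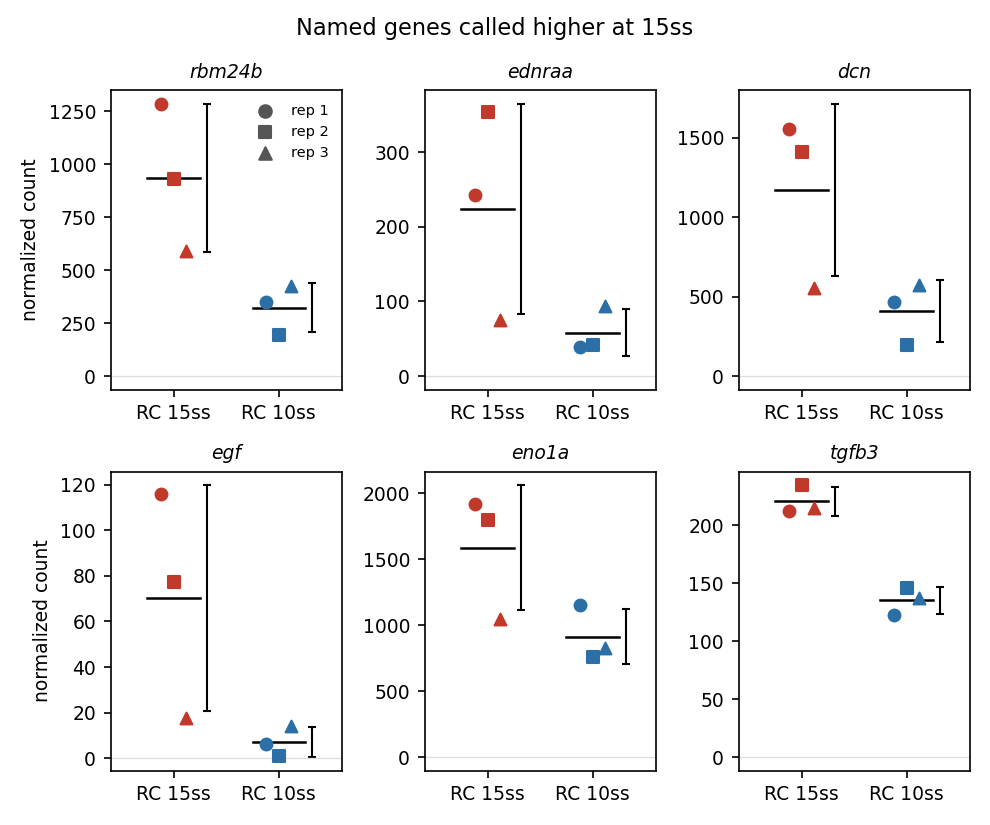
Normalized counts (y axes, from 0) of the 6 named genes called higher at 15ss, in the 3 RC 15ss embryos (red, left) and the 3 RC 10ss embryos (blue, right). Points are embryos with the shape giving the replicate number, horizontal lines are means and vertical bars 1 SD; replicate 3 (triangle) was the lowest 15ss embryo for each gene except tgfb3, where replicate 1 (212.1) was.

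Muscle genes were among those that rose. The study's table of gene ontology (GO) terms, which was built from genes that differed between the species in these samples and is cut short for long terms, listed 60 tested genes under muscle, sarcomere or myofibril terms. Of these, 6 were called higher at 15ss (beside 0.686% of all genes tested), rbm24b among them, and 0 lower. Of the 21 with an unadjusted p under 0.05, 20 were higher, beside 1452 of 1902 over all 21123 genes tested. Their median difference was 0.50 on the log2 scale, beside 0.01 over all genes tested. Without RC 15ss replicate 3 the count was 12, and it was 1 without RC 15ss replicate 1, 2 without replicate 2 and 1 without RC 10ss replicate 2.

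Among the 14 genes that the same table placed under sarcomere organization, the median difference was 1.0 on the log2 scale and 12 of the estimates were above 0. Only 2 were called, both higher (beside 0.686% of all genes tested), and in 7 of the 14 every 15ss embryo lay above every 10ss embryo (beside 7.21%). The more abundant, ENSACLG00000017825, had 3568.1, 2409.7 and 887.0 normalized counts in RC 15ss against 746.0, 271.9 and 685.3 in RC 10ss. Its embryos did not overlap although RC 15ss replicate 3 lay near the 10ss range (log2 difference 1.92, SE 0.41, adjusted p = 0.0151, limma). The second, ENSACLG00000026171, had 468.6, 264.3 and 106.4 in RC 15ss against 61.4, 14.3 and 77.6 in RC 10ss, again without overlap (2.49, SE 0.51, adjusted p = 0.0105, limma). Both began near 0 at RC 4ss, with means of 0.995 and 0 normalized counts, and stood at 12075 and 2458 at RC 37ss. Neither was called without RC 15ss replicate 1, without RC 15ss replicate 2 or without RC 10ss replicate 2.

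Genes of muscle and somite regulators did not pass the test. The myogenic factor gene myf5 had 2336.0, 1633.6 and 2229.1 in RC 15ss against 1606.7, 2874.2 and 2203.4 in RC 10ss (difference -0.09, adjusted p = 0.986, limma). The somite homeobox gene meox1 had 2335.0, 1821.8 and 2391.9 in RC 15ss against 1717.2, 2378.2 and 2127.1 in RC 10ss (0.08, adjusted p = 0.988, limma). In each the stages overlapped. None of the 5 named myogenic regulators was called, and none had an unadjusted p under 0.05. Of all 21123 genes tested, 0.715% were called and 1902 had such a p, so none among 5 is near the background. Of the 19 genes that the table lists for somitogenesis, 0 were called by limma, DESeq2 or edgeR and 0 had an unadjusted p under 0.05, with a median difference of 0.07, beside 0.715% of all genes tested that were called.

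The axial genes noto and fgf8a were spread widely between siblings, and shha less so. The notochord gene noto had 477.7, 450.4 and 844.3 in RC 15ss against 198.5, 1085.6 and 600.0 in RC 10ss, with RC 15ss replicate 3 and RC 10ss replicate 2 the highest of their stages and RC 10ss replicate 1 the lowest of all. The signalling gene fgf8a, active in the tailbud, had 483.8, 465.2 and 666.8 in RC 15ss against 160.7, 1003.5 and 567.7 in RC 10ss, with the same embryos highest and lowest. For shha, the signal of notochord and floor plate, the values were 1172.5, 1011.9 and 1369.2 in RC 15ss against 771.6, 1180.0 and 1073.3 in RC 10ss. None of these passed the test (adjusted p = 0.98 for noto, 0.958 for fgf8a and 0.835 for shha, limma).

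Leaving out RC 15ss replicate 3 added calls for 10 further named genes that limma did not call with all embryos. That embryo was singled out from these same values and was the lowest 15ss embryo in each of the 10. Leaving it out therefore raised each 15ss mean, so these calls are no separate result. Named genes gained by leaving out other embryos are not given. With all embryos, DESeq2 called 6 of these 10 (chrna1, mustn1b, pax7, loxl3b, nr2f2 and tyrp1b). The chrna1 gene, which encodes the alpha subunit of the acetylcholine receptor of muscle, had 284.8, 229.4 and 159.7 in RC 15ss against 146.3, 93.5 and 112.5 in RC 10ss. Its difference was 0.91 with all embryos (adjusted p = 0.117, limma) and 1.14 without that embryo (adjusted p = 0.0338, limma). The gene mustn1b, expressed in the musculoskeletal system, had 82.8, 102.6 and 15.7 in RC 15ss against 11.3, 8.6 and 28.4 in RC 10ss. In it RC 15ss replicate 3 lay inside the 10ss range.

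The gene pax7, which encodes a transcription factor of muscle progenitors and NC cells, had 242.4, 215.7 and 175.3 in RC 15ss against 142.3, 49.6 and 130.6 in RC 10ss. No embryos overlapped, yet the difference missed the threshold (SE 0.30, adjusted p = 0.0791, limma). The matrix glycoprotein gene tnc (tenascin-C) had 2184.5, 1730.9 and 1007.1 in RC 15ss against 859.6, 501.8 and 976.3 in RC 10ss, with a difference of 1.06 (adjusted p = 0.20, limma). The matrix cross-linking enzyme gene loxl3b had 818.1, 616.4 and 491.5 in RC 15ss against 352.0, 405.4 and 324.6 in RC 10ss, with a difference of 0.80 (adjusted p = 0.0834, limma).

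The remaining genes of this kind were nr2f2, an orphan nuclear receptor of veins and other tissues, pcdh10a, a protocadherin, rbms3, an RNA-binding protein, nsfa, an ATPase of vesicle fusion, and the pigment gene tyrp1b. Their differences without RC 15ss replicate 3 were 0.83, 1.55, 1.09, 2.55 and 3.33 on the log2 scale, and with all embryos each had an adjusted p between 0.129 and 0.687 (limma).

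None of the 45 tested genes of the study's NC list was called by limma, DESeq2 or edgeR. With 0.715% of all genes tested called, a count of 0 among so few genes is near the background. The median difference was -0.05 (log2). The 5 list genes with an unadjusted p under 0.05 were all higher at 15ss, beside 1452 of 1902 over all 21123 genes tested. That list, like the pigmentation and craniofacial lists, was put together by the study from genes that differed in these samples, so it is not an independent set. The NC transcription factor gene sox10 had 957.4, 998.1 and 1145.9 in RC 15ss against 768.6, 1000.7 and 999.6 in RC 10ss, a difference of 0.17 (SE 0.27, adjusted p = 0.96, limma). Cichlids carry paralogs of this gene, and which of them this entry is was not settled here. The stages overlapped and all embryos lay within a narrow range.

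Of the 13 named genes on the list of NC specification, 0 were called by limma, DESeq2 or edgeR, where limma called 0.715% of all genes. An unadjusted p under 0.05 (limma) was found for 2 of them, beside 1902 of all 21123 genes tested. For foxd3, a marker of premigratory NC, the values were 578.7, 542.4 and 687.7 in RC 15ss against 541.4, 2489.8 and 606.5 in RC 10ss. RC 10ss replicate 2 stood far above the other 5 embryos, which overlapped, and the difference was -0.64 (SE 0.36, adjusted p = 0.676, limma). The same embryo was the highest for sox9b, a chondrogenic and NC factor, with 1168.5, 1186.3 and 1802.3 in RC 15ss against 1217.8, 3205.2 and 1338.4 in RC 10ss. It was also the highest for zic2a, a gene of the dorsal neural tube and neural plate border, with 1566.4, 1632.5 and 2182.1 in RC 15ss against 1598.5, 4235.5 and 2015.9 in RC 10ss. Within 15ss the highest embryo for foxd3, sox9b and zic2a was replicate 3.

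The paired-box gene pax3a had 1085.7, 1132.4 and 1540.3 in RC 15ss against 1079.7, 1732.3 and 1412.1 in RC 10ss, and prdm1a had 882.7, 659.8 and 576.1 against 735.8, 1129.5 and 786.2. Both act in the neural plate border and NC, and neither passed the test (adjusted p = 0.956 for pax3a and 0.756 for prdm1a, limma). For tfap2a, an early NC and epidermal factor, every 15ss embryo lay below every 10ss embryo, with 2649.1, 2583.1 and 2115.3 in RC 15ss against 3792.7, 2985.8 and 3001.3 in RC 10ss. This order was found for 4.20% of all genes tested, and the difference of -0.41 did not pass (SE 0.14, adjusted p = 0.221, limma). The chondroitin synthase gene chsy1 showed the same order, with 1280.6, 1237.1 and 1298.2 in RC 15ss against 1541.2, 1628.4 and 1309.9 in RC 10ss (-0.23, adjusted p = 0.803, limma).

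Of the 17 named genes on the list of NC migration, 0 were called by limma, DESeq2 or edgeR. With 0.715% of all genes tested called by limma, a count of 0 among 17 is near the background. In the list 5 had an unadjusted p under 0.05 (limma), 4 of them higher at 15ss, beside 1902 of all 21123 genes tested. That is a larger share, though of few genes. In 3 of the 17 every 15ss embryo lay above every 10ss embryo and in 3 below, beside 7.21% and 4.20% of all genes tested. The genes given next are ones the study discusses and are not among the 5. The neuregulin receptor gene erbb3b, used by migrating NC and glia, had 658.5, 795.1 and 772.3 in RC 15ss against 608.9, 748.8 and 607.8 in RC 10ss (0.18, adjusted p = 0.967, limma). The ligand gene fgf3 had 180.8, 151.2 and 228.5 in RC 15ss against 161.7, 298.6 and 222.4 in RC 10ss (-0.26, adjusted p = 0.939, limma). The genes dicer1, of microRNA processing, and cnbpa, a nucleic acid binding protein, differed by -0.12 and 0.05 (adjusted p = 0.95 and 0.971, limma).

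The pigment cell genes dct, pmela and tyr were already expressed at 10ss, and limma called no gene of the pigmentation list. Of the 56 tested genes of that list, 0 were called by limma and by edgeR and 3 by DESeq2. Of all 21123 genes tested, limma called 0.715%, edgeR 158 genes and DESeq2 394. In the list 5 had an unadjusted p under 0.05 (limma), beside 1902 of all 21123 genes tested, and the median difference was -0.07. Without RC 15ss replicate 3, limma called 4 of the list, beside 1.92% of all genes tested. The melanin synthesis gene dct had 711.0, 700.0 and 491.5 in RC 15ss against 640.6, 644.9 and 603.9 in RC 10ss, a difference of -0.01 (SE 0.49, limma). The melanosome gene pmela had 3723.7, 3377.1 and 2488.9 in RC 15ss against 2777.5, 2547.0 and 2954.7 in RC 10ss, a difference of 0.19 (SE 0.27, limma). For tyr, the rate-limiting enzyme of melanin synthesis, every 15ss embryo was below every 10ss embryo, with 399.9, 315.1 and 391.3 in RC 15ss against 469.7, 650.6 and 562.5 in RC 10ss, but the difference of -0.60 did not pass (SE 0.39, adjusted p = 0.772, limma).

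A pigment gene that leaned on 1 embryo was tyrp1b, another melanin synthesis gene. It had 292.9, 221.0 and 20.9 in RC 15ss against 65.5, 4.8 and 41.4 in RC 10ss. Replicates 1 and 2 at 15ss stood far above all other embryos, and replicate 3 was inside the 10ss range (difference 2.15, SE 0.73, adjusted p = 0.215, limma). The melanocyte master regulator gene mitfa was low, with 26.3, 22.2 and 5.2 in RC 15ss against 9.2, 10.5 and 15.5 in RC 10ss. The pteridine synthesis gene gch2 of xanthophores was not called either, with 638.3, 530.8 and 1856.5 in RC 15ss against 6990.8, 196.5 and 1201.3 in RC 10ss. The tyrosine kinase receptor gene ltk of iridophores had 11.1, 7.4 and 10.4 in RC 15ss against 29.7, 17.2 and 18.1 in RC 10ss (-1.06, SE 0.96, limma).

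In the craniofacial and cartilage list, 2 of 105 tested genes were called, rbm24b and tgfb3, both higher, where 0.686% of all genes tested were called higher. Nothing particular to the list is read from so small a count. The median difference was -0.06. The 11 list genes with an unadjusted p under 0.05 were all higher at 15ss, beside 1452 of 1902 over all 21123 genes tested. At that p, 11 of 105 is near the background. Without RC 15ss replicate 3 the count was 6, and it was 0 without RC 15ss replicate 1 or without RC 10ss replicate 2.

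Some epidermal genes differed widely between siblings and others did not. The epidermal factor gene grhl3, which acts in periderm and barrier formation, had 1147.3, 956.9 and 197.2 in RC 15ss against 1947.5, 202.2 and 923.3 in RC 10ss. RC 15ss replicate 3 and RC 10ss replicate 2 were several-fold below their siblings and nearly equal to each other, and the stage difference was -0.25 (SE 0.52, adjusted p = 0.969, limma). The epithelial factor gene ovol1a had 148.5, 176.6 and 63.7 in RC 15ss against 344.9, 77.3 and 144.8 in RC 10ss, with RC 15ss replicate 3 and RC 10ss replicate 2 again the lowest (-0.40, adjusted p = 0.907, limma). By contrast, and1, an actinodin of fin fold fibres, had 74.7, 82.5 and 85.6 in RC 15ss against 54.2, 74.4 and 64.7 in RC 10ss, and RC 15ss replicate 3 was the highest. The basement membrane gene fras1 had 1442.2, 1942.3 and 1508.0 in RC 15ss against 1679.4, 2146.3 and 1638.4 in RC 10ss, with RC 10ss replicate 2 the highest of its stage.

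The transcription factor genes gata3 and tfap2c had RC 15ss replicate 3 and RC 10ss replicate 2 as the lowest of their stages, whereas for tfap2a RC 10ss replicates 2 and 3 were about equal. The gene gata3 had 1431.1, 1817.6 and 807.7 in RC 15ss against 4122.2, 900.5 and 1893.1 in RC 10ss, and tfap2c had 795.8, 936.8 and 519.7 in RC 15ss against 2128.6, 387.3 and 1115.9 in RC 10ss. In each, RC 10ss replicate 1 was the highest of the 6. None of the 6 named genes of the epidermal and ionocyte list was called by limma, DESeq2 or edgeR, and none had an unadjusted p under 0.05. With 0.715% of all genes tested called by limma, no call among 6 genes is near the background. Of the 145 genes that rose, 56 (38.6%) were among those more than 2-fold lower in RC 15ss replicate 3 than in its siblings. Over the genes compared this was so for 1214 of 15252. Another count of 56 held for RC 10ss replicate 2, beside 1290 of 15252. A low value in that embryo lowers the 10ss mean and so favours a call as higher. The 145 were chosen from these same embryos, so neither count is a separate result. Genes under the minimum mean of 50 normalized counts could not enter either count, though they stayed among the 145. Beyond leaving embryos out, the part of these sibling differences in the stage differences was not tested.

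Other genes followed the same split between siblings. The membrane protein gene tspan37 had 133.3, 95.2 and 4.2 in RC 15ss against 98.2, 2.9 and 41.4 in RC 10ss, and the folate enzyme gene aldh1l1 had 1027.1, 743.3 and 314.1 against 914.9, 171.7 and 575.4. In each RC 15ss replicate 3 and RC 10ss replicate 2 were the lowest of their stages. Other genes were highest in RC 10ss replicate 1. The guidance ligand gene sema3fa had 1296.8, 1374.5 and 776.4 in RC 15ss against 4109.9, 753.6 and 1205.2 in RC 10ss. The secreted Frizzled-related gene szl (sizzled), which restrains Chordin breakdown in ventral tissue, had 181.8, 221.0 and 77.2 in RC 15ss against 1795.0, 289.0 and 319.4 in RC 10ss. For szl no embryos overlapped, the difference was -1.91 (SE 0.68, adjusted p = 0.264, limma), and DESeq2 called it (adjusted p = 0.0347). Without RC 10ss replicate 1 the difference was -1.05 (adjusted p = 0.688, limma).

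**Figure D4:**
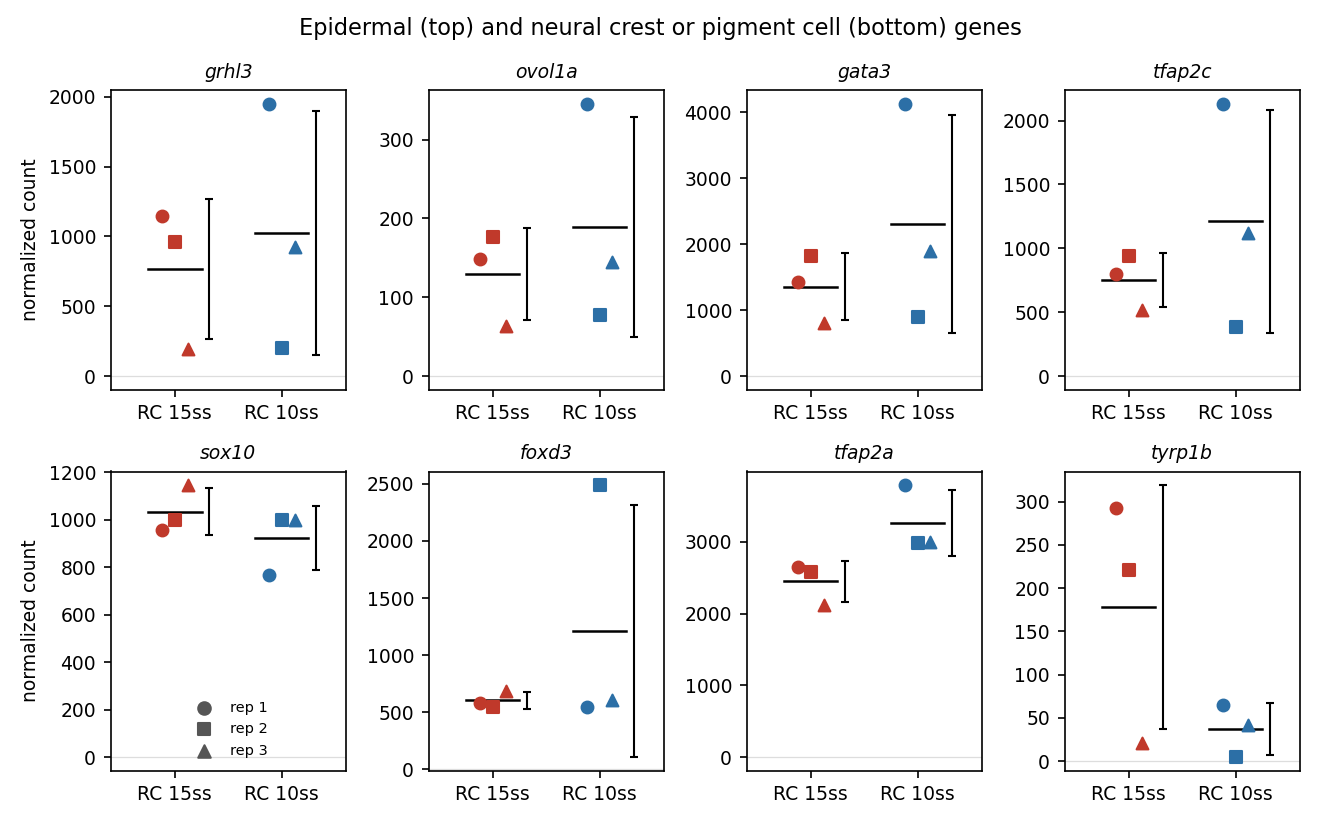
Normalized counts (y axes, from 0) in the 3 RC 15ss embryos (red, left) and the 3 RC 10ss embryos (blue, right). The top row holds grhl3, ovol1a, gata3 and tfap2c, and the bottom row 4 NC or pigment cell genes. Of the top row, only grhl3 and ovol1a are on the epidermal and ionocyte list. Of the list members not shown, RC 15ss replicate 3 was the lowest 15ss embryo in foxi1 but not in and1, and2 or fras1. Points are embryos with the shape giving the replicate number, horizontal lines are means and vertical bars 1 SD; grhl3 was at 197.2 in RC 15ss replicate 3 and 202.2 in RC 10ss replicate 2, while foxd3 stood at 2489.8 in RC 10ss replicate 2 alone.

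Only 6 genes were called lower at 15ss, none of them named, and in all 6 the embryos did not overlap. The levels of 4 of them were low, under 50 normalized counts in every RC 15ss and RC 10ss embryo. Of the other 2, ENSACLG00000001729 had 59.6, 27.5 and 66.8 in RC 15ss against 135.1, 189.8 and 213.4 in RC 10ss (-1.86, adjusted p = 0.0223, limma). ENSACLG00000025833 was abundant, with 2672.3, 3122.3 and 2565.1 in RC 15ss against 6226.3, 4673.3 and 3531.4 in RC 10ss (-0.75, adjusted p = 0.0275, limma). In AC, none of the 6 was called between 15ss and 10ss by limma, DESeq2 or edgeR, and none had an unadjusted p under 0.05, but the difference between the species was called for none of them either (3 at an unadjusted p under 0.05).

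The same somite counts in AC gave a larger set, 1702 genes called (8.06% of the 21123 tested), 1129 higher (5.34%) and 573 lower (2.71%). Per the study AC forms fewer somites than RC, so a count is a different share of somitogenesis, and timing shifts could explain many species differences. On the RC axis RC 15ss lay at 32.7 to 51.3 and AC 15ss at 50.2 to 58.9. On the AC axis the 10ss ranges overlapped (30.5 to 45.2 in RC, 36.9 to 41.9 in AC). The part of timing was not tested. Of the 145 genes that rose in RC, 102 were also called higher in AC (70.3%), against 5.34% of all genes tested, and 0 were called lower. Both tests used the same spread estimate per gene, so the calls are not fully independent. For the 145 the AC estimate was above 0 in 139, and the median difference was 2.13 in RC, which chose them, and 1.69 in AC. All 6 named genes were called in AC too. For rbm24b, AC 15ss had 1284.8, 1070.2 and 1026.8 against 329.9, 439.2 and 297.3 in AC 10ss, and for ednraa AC 15ss had 190.6, 255.2 and 185.0 against 26.2, 49.4 and 25.1 in AC 10ss. In neither did the AC embryos overlap. Of the genes called higher with 1 RC embryo left out, between 55.4% (without RC 10ss replicate 3) and 77.3% (without RC 10ss replicate 2) were called higher in AC.

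**Figure D5:**
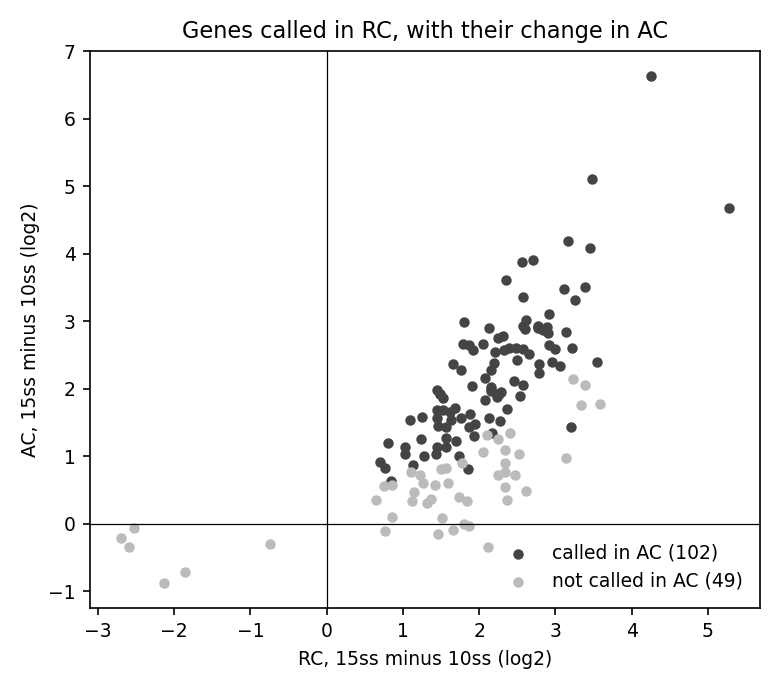
Difference between 15ss and 10ss in AC (y axis, log2) against the same difference in RC (x axis, log2) for the 151 genes called in RC, each point a gene. Dark points are the 102 genes called in AC as well and light points the 49 that were not; the points left of 0 are the 6 genes lower at 15ss in RC, of which none was called in AC.

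A larger number of calls in AC does not show that more changed there, so the difference between the changes was tested gene by gene. It was called for 10 genes of 21123 (0.0473%), in 8 of which the change was lower in RC than in AC (0.0379%) and in 2 higher (0.00947%). None of the 10 had a name, and for the 145 genes that rose in RC it was called for none by limma or edgeR and for 5 by DESeq2 (22 at an unadjusted p under 0.05, limma). The clearest, ENSACLG00000019655, had 806.9, 852.2 and 650.2 in RC 15ss against 684.6, 684.0 and 757.8 in RC 10ss, and 561.3, 620.1 and 764.3 in AC 15ss against 273.4, 238.4 and 296.3 in AC 10ss. The RC embryos overlapped, the AC embryos did not, and the change was 1.15 log2 units smaller in RC (difference -1.15, SE 0.16, adjusted p = 0.000731, limma). This number depended on single embryos in both species: it was 1 without RC 10ss replicate 1 or AC 15ss replicate 2, 2 without RC 15ss replicate 2 or 3, 33 without RC 15ss replicate 1, 180 without RC 10ss replicate 2 and 271 without AC 15ss replicate 3.

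Among the named genes given here, the nearest to such a difference was edn1, which was called lower at 15ss in AC. It had 17.8, 35.5 and 29.8 in AC 15ss against 72.3, 118.1 and 96.4 in AC 10ss, beside the RC values above, and the species difference of 2.61 did not pass (SE 0.66, adjusted p = 0.0941, limma). Of the 19 somitogenesis genes, 0 were called in RC, which is near its background of 0.715%. In AC, 2 were higher and 6 lower, beside 5.34% and 2.71% of all genes tested, but the difference between the species was called for 0 of the 19 by limma and by edgeR and for 1 by DESeq2 (10 at an unadjusted p under 0.05, limma).

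Few long noncoding RNAs (lncRNAs) and transposable elements (TEs) passed the test. Of 1087 lncRNAs tested, 1 was called (0.0920%), LOC113006777, with 0, 0 and 2.1 normalized counts in RC 15ss against 5.1, 9.6 and 5.2 in RC 10ss (adjusted p = 0.0289, limma). At so few reads no fold is given, and neither DESeq2 nor edgeR called it or any other. Of 1503 TE families tested, limma called 0 (0.00%), and DESeq2 and edgeR called 1 each. By limma 87 families had an unadjusted p under 0.05, 20 of them higher and 67 lower at 15ss. Of 3 TE families that shared the lowest adjusted p, the 1 that rose most was an unclassified repeat, rnd-6_family-5755, with 242.5, 192.9 and 181.4 in RC 15ss against 125.6, 59.6 and 120.5 in RC 10ss (1.07 log2, adjusted p = 0.118, limma). Another of the 3, the unclassified repeat rnd-5_family-2619, fell, with 44.3, 43.2 and 42.7 in RC 15ss against 98.3, 63.4 and 70.5 in RC 10ss (-0.79 log2, adjusted p = 0.118, limma). In neither family did the embryos overlap. The median difference over TE families was -0.06 (log2).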

How the data were processed

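The authors extracted total RNA from single whole embryos, made stranded polyA libraries, and sequenced them as paired reads. Per the labels and methods, reads were trimmed with Trim Galore, mapped with STAR to the A. calliptera genome (fAstCal1.2), counted per gene with HTSeq from uniquely mapped reads, and scaled with DESeq2's size factors. TE families were counted with multi-mapping reads. Whether the counting used strand is not given in the sources used here, so overlapping genes may share reads. The deposited values are these normalized counts, a signal scaled for depth and not for length. They gave whole reads for 100% of values within 0.02 reads. The 18 columns of stage means and maxima were not used.

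From these values, limma 3.58.1 (R 4.3.3) was fitted to log2(normalized count + 1) with a variance trend over 47 embryos from 4ss to 30ss with 16 group means, keeping features that reached 10 normalized counts in 2 or more embryos. RC 37ss was left out of the fit, as in the study. Fold changes are on that log2 scale, which understates low genes, and the fit was tested on simulated data. The simulation drew each gene independently, with the same dispersion in every group. It held no embryo displaced in many genes together, so it cannot show how the calls behave with such embryos. Genes were called at an adjusted p under 0.05 and a fold change above 1.5. With 3 against 3 embryos a permutation test cannot go below p = 0.1, so none was used. The alternatives were other settings, single embryos left out, and count models fitted to the recovered reads (edgeR 4.0.16 and DESeq2 1.42.0).

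The genes, lists and tests were chosen with earlier results of these data known. The rule for named genes took, in each direction, called genes with a name (ranked by change, also within each list), genes the study discusses, and defining members of lists. Genes that limma called without RC 15ss replicate 3 and not with it, rbm24a and the unnamed genes given by identifier fall outside it and were chosen after their values were seen. Of the marker lists, 100 of 1832 symbols could be matched to an identifier, so most lists hold few genes. Unnamed genes are limited to a few identifiers.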

Additional observations from a re-analysis of the deposited data

Results flagged for a closer look

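The change from 10ss to 15ss differed between RC and AC for 10 genes by a test of the difference itself (limma, adjusted p under 0.05 and fold above 1.5). All 10 lack a name. In 8 of them the change was lower in RC than in AC, by differences (RC minus AC, log2) of -4.09, -3.61, -3.17, -2.03, -1.17, -1.15, -0.95 and -0.74, and in the other 2 it was higher, by 0.62 and 0.76.

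The gene with the difference of -4.09 had 4.0, 1.1 and 0 normalized counts in RC 15ss against 4.1, 1.9 and 2.6 in RC 10ss, and 6.3, 12.9 and 8.5 in AC 15ss against 0, 0 and 0 in AC 10ss, so the fitted value rests on very few reads. At -3.61, the gene had 64.6, 65.6 and 28.2 in RC 15ss against 21.5, 26.7 and 19.4 in RC 10ss, and 36.6, 108.7 and 44.6 in AC 15ss against 4.2, 0 and 1.0 in AC 10ss. It was near 0 at 10ss in AC and not in RC. At -2.03, the gene was level in RC, with 108.1, 99.4 and 99.1 in RC 15ss against 109.5, 98.3 and 81.5 in RC 10ss, and scarce in AC, with 2.1, 6.5 and 6.4 in AC 15ss against 0, 1.1 and 0 in AC 10ss. At 0.62, the gene had 1189.7, 1090.1 and 1125.0 in RC 15ss against 1038.7, 1252.5 and 1112.1 in RC 10ss, and 642.9, 749.3 and 891.8 in AC 15ss against 1240.1, 1165.0 and 1061.8 in AC 10ss. In RC alone, none of the 10 was called between the stages, and 8 of them were called in AC.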

How the results depend on the processing

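The count of 151 genes called in RC was 76 with the 26 RC embryos only, 0 with the 6 embryos of the comparison only and 394 with DESeq2, and ranged from 17 to 406 with 1 embryo left out (17 without RC 15ss replicate 1, 406 without RC 15ss replicate 3). It stayed within 1.5 times of 151 under edgeR (158), the other pseudocounts (116 at 0.1 and 155 at 10), quantile normalization (115), the low-value filters (151 without one), other fold thresholds (141 and 153) and without RC 10ss replicate 1 (194). DESeq2 shared 140 of the 151 and edgeR 126. The count of 10 genes whose change differed between the species was 131 with DESeq2, 1 with edgeR, 0 with the 12 embryos of the comparison only, 29 and 2 with pseudocounts of 0.1 and 10, 21 with quantile normalization and 6 above an absolute log2 change of 1, and ranged from 1 to 271 with 1 embryo left out. The 1 lncRNA was 0 with the 26 RC embryos only, DESeq2, edgeR, the 6 embryos only, no filter, a pseudocount of 10 and quantile normalization, 3 with a pseudocount of 0.1, and 0 to 6 with 1 embryo left out. The 0 TE families became 1 with DESeq2, edgeR and quantile normalization. The cause of these shifts was not tested. Fits on fewer embryos estimate the spread from fewer values. The 6 named genes were called in 11 to 15 of 18 settings and never changed sign. Replicate numbers are only names here: deviations of same-numbered RC embryos correlated at 0.32, -0.22 and -0.08. With the replicate number as a block, 140 genes were called, 137 of them shared, the species difference was called for 4 genes, and 1 lncRNA and 0 TE families were called. Depth limited genes near 0 at 10ss, such as the 9 with no read there.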
